A study of Mus musculus with 9 samples.

Results

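A set of 10 genes of T cell co-stimulation and MHC class I presentation were followed through lipopolysaccharide (LPS) and suramin treatment of MH-S cells, an established mouse alveolar macrophage line. They were chosen by gene symbol from the deposited gene table, which lists 14771 genes. The 4 early activation and co-stimulation genes are Cd83, Cd40, Cd80 and Cd86, and the 6 class I genes are H2-K1, H2-D1, B2m, Tap1, Tap2 and Nlrc5. All 10 were found and all 10 passed the filter on low counts, with 11281 genes tested in all. On GRCm38 (GENCODE M21) Cd83 lies on chromosome 13 at 43784775 to 43803132, Cd40 on chromosome 2 at 165055627 to 165072948 and B2m on chromosome 2 at 122147686 to 122153083. Cd80 and Cd86 lie on chromosome 16 at 38455561 to 38496335 and 36603869 to 36666081, Nlrc5 on chromosome 8 at 94434356 to 94527272, and H2-K1 and H2-D1 in the MHC on chromosome 17 at 33996017 to 34000347 and 35262730 to 35267499. Cd83 passed through the groups in which it was high, since its CON counts were only 11, 12 and 3. Its calls against CON therefore lend no support to the counts of members called.

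The study sequenced mRNA from 3 groups of 3 libraries, numbered 1 to 3 in each group. CON cells received culture medium and LPS cells 1 µg/ml LPS for 4 h. SUR cells received 200 µM suramin together with 1 µg/ml LPS for 4 h per the treatment protocol, while the sample label names suramin alone. SUR was taken here as suramin with LPS, following the protocol. On that reading no group received suramin without LPS, and all SUR values describe suramin in the presence of LPS. All groups are of this 1 cell line. Separate cultures are not named for the replicates in any label, so the p-values reflect just the spread among these libraries, which may be technical. Libraries held 15729402 to 16675250 counts. Same-numbered libraries of different groups deviated together, and the libraries numbered 1 stood apart from those numbered 2 and 3 in every group. Of the 16 macrophage markers listed, 15 were in the table and 11 passed the filter, with Lyz2, Cd68, Csf1r, Adgre1, Itgam and Ptprc all abundant. The alveolar macrophage markers Marco, Siglecf, Pparg and Chil3 were at or near 0 in every group. Summed lymphocyte markers did not exceed 1.06 CPM and summed neutrophil markers 0.237 CPM in any library, where CPM is the count after TMM scaling of library sizes. Summed epithelial markers did not exceed 0.183 CPM, and fibroblast and endothelial markers 1.21 CPM. Of the 7 dendritic cell markers listed, 6 were in the table, with sums of 18.5 to 26.8 CPM. Only Zbtb46, Batf3 and Kmo passed the filter, and Zbtb46 (13.1 CPM in CON) and Kmo (6.93 CPM in CON) made up most of the sum. Flt3, Xcr1 and Clec9a averaged at most 0.0604, 0.288 and 0.044 CPM in any group.

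Macrophages show T cells peptides held in a groove of the class I heavy chain, encoded in this table mainly by H2-K1 and H2-D1, bound to the light chain beta-2 microglobulin (B2m). The peptides are cut by the proteasome in the cytosol and carried into the endoplasmic reticulum by a transporter built from TAP1 and TAP2. NLRC5 is a transcriptional activator of class I genes. A T cell also needs co-stimulation, delivered by CD80 and CD86 to its receptor CD28. CD40 receives the CD40 ligand of T cells, and CD83 is a surface protein of activated antigen-presenting cells that stabilises MHC class II and CD86. LPS acts through TLR4, whose signals reach NF-kappaB and, through TRIF, the interferon pathway. Suramin is a polyanionic drug that blocks purinergic receptors and several growth factor interactions.

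The levels of the 10 genes spanned a wide range. On the TPM scale, which allows for transcript length, B2m was highest in every library, at 2387 to 2993, followed by H2-D1 at 1064 to 1607 and H2-K1 at 740 to 1212. Cd86 (51.2 to 88.9 TPM), Tap2 (46.6 to 61.1 TPM) and Tap1 (36.3 to 58.2 TPM) lay well below, with ranges that overlapped one another. Cd40 ranged from 15.5 to 115 TPM, below those 3 genes in every CON library and above them in every LPS library. Nlrc5 (17.2 to 20.4 TPM) and Cd80 (6.39 to 22.3 TPM) overlapped, and Cd83 had the lowest level in every library, from 0.15 to 12.9 TPM.

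**Figure D1:**
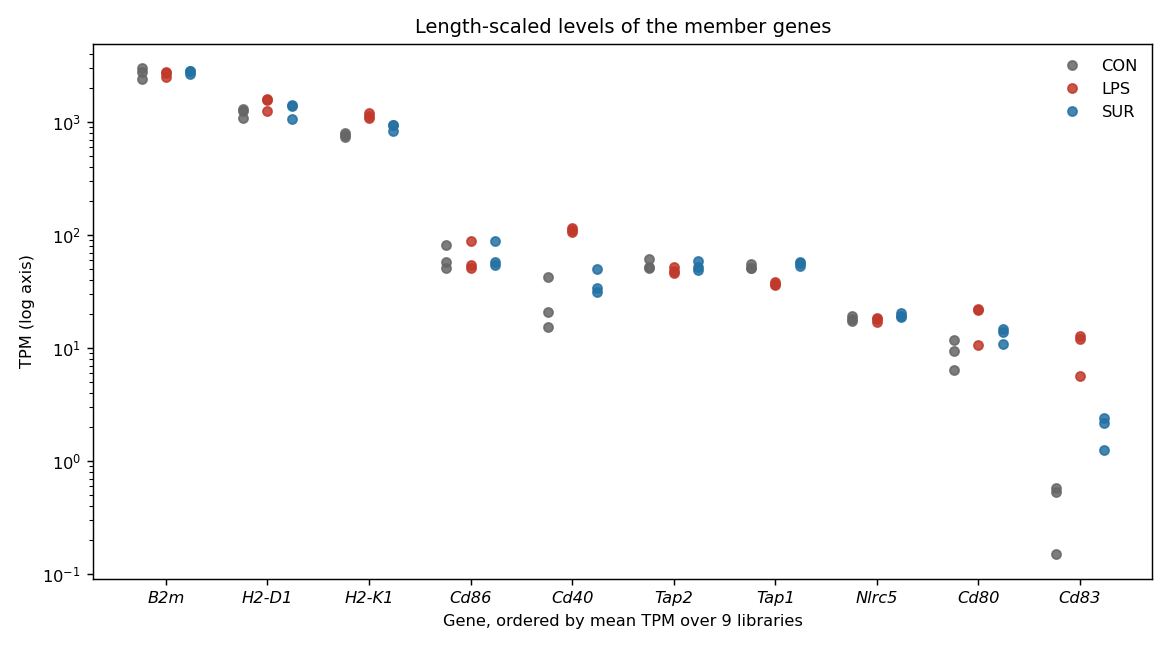
TPM (log axis) of the 10 genes in each of the 9 libraries, with genes ordered by level and colours for CON, LPS and SUR. B2m, H2-D1 and H2-K1 lie between 740 and 2993 TPM in all libraries, whereas Cd83 lies between 0.15 and 12.9 TPM.

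The first comparison, LPS against CON, asks what LPS did to these genes. LPS raised Cd83, Cd40, Cd80 and H2-K1 and lowered Tap1, while Cd86, H2-D1, B2m, Tap2 and Nlrc5 did not pass the test. Thus 5 of the 10 genes were called (adjusted p below 0.05), beside 18.3% of all tested genes. With the replicate block 6 were called, H2-D1 being added, beside 41.8% of tested genes, and the same number without the libraries numbered 1, beside 30.2%. The groups did not overlap for 5 of the 10 genes, beside 32% of tested genes. The rises covered 3 of the 4 co-stimulation genes and 1 of the 6 class I genes, beside 8.98% of tested genes that rose, and 1 class I gene fell, beside 9.36%. Cd83, among these rises, passed the filter through the groups where it was high, so its call lends no support to these counts. The median log2 fold change was 1.67 over the co-stimulation genes, 0.10 over the class I genes and -0.0088 over all tested genes. In bulk RNA, fewer expressing cells and less RNA per cell cannot be told apart. Adjusted p-values are from the quasi-likelihood test of edgeR, Benjamini-Hochberg adjusted over all tested genes, and values called blocked are from the same test with the replicate number as a term.

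Cd83 showed the largest change of the 10. It was at 0.642, 0.731 and 0.179 CPM in CON 1, 2 and 3 and at 7.23, 16 and 17.1 CPM in LPS 1, 2 and 3. Every LPS library was above every CON library, though LPS 1 reached less than the other two. Its log2 fold change was 4.68 (SE 0.510, adjusted p = 0.000346), a 25.6-fold rise. Since CON held 3 to 12 counts per library, the size of this fold is imprecise, and the same-numbered differences ran from 3.27 to 5.84 on the log2 scale.

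Cd40, the receptor for CD40 ligand, was at 38.0, 19.7 and 14.0 CPM in CON and at 107, 116 and 108 CPM in LPS. The LPS libraries were close together and all above CON, whereas CON 1 stood above the other CON libraries. The rise was 2.21 in log2 units (SE 0.321, adjusted p = 0.00155), or 4.62-fold, and it was 2.75 without the libraries numbered 1.

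The CD28 ligands Cd80 and Cd86 had different patterns. Cd80 was at 8.17, 14.2 and 11.3 CPM in CON and at 13.9, 29.7 and 30.0 CPM in LPS. LPS 1 lay just below CON 2, so the groups overlapped, but LPS was higher in all 3 same-numbered pairs. This was a log2 difference of 1.13 (SE 0.315, adjusted p = 0.0376), or 2.19-fold, and the blocked adjusted p was 2.72e-05. The unblocked call was fragile, with an adjusted p of 0.0900, 0.0502 and 0.107 without CON 1, 2 or 3, of 0.123 and 0.125 without LPS 2 or 3, and of 0.0571 and 0.0569 without SUR 2 or 3.

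Cd86 was at 117, 87.0 and 75.3 CPM in CON and at 137, 86.9 and 82.6 CPM in LPS. The groups overlapped, and the order followed the library number, with number 1 highest in both. The difference was 0.13 in log2 units (SE 0.252, adjusted p = 0.816, blocked 0.0514). The transcript ratio of Cd80 to Cd86, in TPM, was 0.0780, 0.204 and 0.182 in CON and 0.122, 0.411 and 0.428 in LPS, higher in LPS within each number.

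Among the class I genes, H2-K1 rose. It was at 669, 756 and 702 CPM in CON and at 1062, 1233 and 1166 CPM in LPS, with no overlap and nearly the same difference in each number (0.67 to 0.73 on the log2 scale). Its fitted log2 change was 0.70 (SE 0.0902, adjusted p = 0.000809), or 1.63-fold.

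H2-D1, the other classical heavy chain, was at 997, 1233 and 1222 CPM in CON and at 1254, 1671 and 1636 CPM in LPS. Every LPS library lay above every CON library, LPS 1 only narrowly. The log2 fold change was 0.40 (SE 0.157, adjusted p = 0.122), and with the replicate block it was called at the same size (0.40, SE 0.0366, adjusted p = 8.16e-06). It was also called without LPS 1 (adjusted p = 0.0498). The TPM ratio of H2-K1 to H2-D1 was 0.685, 0.632 and 0.598 in CON and 0.865, 0.754 and 0.729 in LPS, with no overlap. H2-K1 counts were not whole in 8 of the 9 libraries and H2-D1 counts in all 9, unlike those of the other members. The authors' deposited table also lists H2-K1, H2-D1, Tap1 and Tap2 on an additional scaffold. How reads were divided between near-identical genes or between the chromosome and that scaffold was not tested, so the heavy-chain values are uncertain. The line derives from BALB/c mice while the reference genome is C57BL/6, and the effect of that difference on class I counts was not tested.

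Sequence near the RefSeq starts of the heavy-chain and light-chain genes is shown because these are the members whose windows hold both a kappaB and an interferon response element match. RefSeq promoter entries (GRCm38.p6) were matched for 5 of the 10 genes: H2-K1, H2-D1, B2m, Tap1 and Cd80. The windows are the 250 bases before the RefSeq start, printed 5′ to 3′ on the gene's strand. H2-K1 has 2 such entries, and the one with the more upstream start is shown. The B2m window is 1 base shorter where it met an annotated exon. The whole H2-D1 window (chr17:35262844-35263093) lies within exons that GENCODE M21 annotates to H2-D1, so it is inside the gene as located above and not upstream of it, and only its shared stretch is printed. Capitals mark the kappaB consensus match (the binding motif of NF-kappaB), the interferon response element match and the CCAAT box match.
H2-K1 (chr17:34000348-34000597, minus strand): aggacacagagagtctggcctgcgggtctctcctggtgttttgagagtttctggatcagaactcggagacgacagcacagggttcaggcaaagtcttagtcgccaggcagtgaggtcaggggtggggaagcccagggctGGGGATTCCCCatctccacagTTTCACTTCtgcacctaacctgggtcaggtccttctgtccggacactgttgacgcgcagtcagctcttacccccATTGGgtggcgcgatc
B2m (chr2:122147437-122147685, plus strand): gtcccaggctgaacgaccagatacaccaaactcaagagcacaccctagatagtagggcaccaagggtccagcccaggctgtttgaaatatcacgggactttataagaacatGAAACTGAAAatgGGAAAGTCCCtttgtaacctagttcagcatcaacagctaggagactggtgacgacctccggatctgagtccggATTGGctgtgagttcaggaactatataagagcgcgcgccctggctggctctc
The shared heavy-chain stretch, from the kappaB match to the interferon response element match, is set side by side here.
H2-K1 (chr17:34000429-34000458, minus strand): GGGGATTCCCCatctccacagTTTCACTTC
H2-D1 (chr17:35262923-35262952, plus strand): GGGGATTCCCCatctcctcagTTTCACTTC
These stretches were identical at 29 of 30 bases, with the substitution A18T (H2-K1 base first, positions counted from 1 at the 5′ end). Motifs were searched on both strands. The kappaB consensus was in 7.25% of all 32851 RefSeq windows of this length, the short interferon response element GAANNGAAA in 6.31%, its long form, which has GAAA in place of the leading GAA, in 2.98%, and CCAAT in 33.8%. In H2-K1 the kappaB match (2 overlapping copies) began 111 bases and the interferon response element match 90 bases before the RefSeq start, which is also the edge of the gene in GENCODE. In H2-D1 they began 171 and 150 bases before a RefSeq start that lies inside the gene in GENCODE, so the distances of the 2 genes are not comparable. In B2m the order was reversed, with the long interferon response element at 139 bases and the kappaB match at 126 bases. The Tap1 window held only a CCAAT match, and all of its 250 bases lie in annotated exons of Psmb9 or Tap1. The Cd80 window (chr16:38458683-38458932), which lies inside the Cd80 gene as GENCODE places it, held none of the motifs. The motifs searched also included the STAT core TTCNNNGAA (7.02% of windows) and the CRE TGACGTCA (1.55%). Such matches are descriptions of letters, not of binding.

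B2m did not pass the test. It was at 880, 1193 and 1058 CPM in CON and at 998, 1147 and 1151 CPM in LPS, with full overlap. The log2 fold change was 0.07 (SE 0.112, adjusted p = 0.766).

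The peptide transporter genes did not move together. Tap1 was at 93.2, 91.3 and 87.9 CPM in CON and at 68.0, 73.3 and 69.0 CPM in LPS, lower in every LPS library. This log2 change was -0.37 (SE 0.0577, adjusted p = 0.00213), a 1.30-fold fall. Tap2 was at 85.6, 76.3 and 74.1 CPM in CON and at 79.3, 75.9 and 73.6 CPM in LPS, with overlap. Its log2 fold change was -0.045 (SE 0.0766, adjusted p = 0.796).

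The TPM ratio of Tap1 to Tap2 was 0.902, 0.993 and 0.983 in CON and 0.711, 0.801 and 0.778 in LPS, with no overlap. Both genes lie in the MHC on chromosome 17 (GRCm38, GENCODE M21), Tap1 at 34187553 to 34197225 and Tap2 at 34203527 to 34216321, both on the plus strand. Psmb9, an immunoproteasome subunit gene, starts beside Tap1 on the opposite strand, at 34181987 to 34187764, and overlaps its first bases. Psmb9 averaged 17.3 ± 0.513 CPM in CON and 14.8 ± 1.15 CPM in LPS (SD, n = 3 each). The log2 difference was -0.23 (SE 0.0861, adjusted p = 0.113, blocked 0.0259). Under upper-quartile scaling Psmb9 was called lower, at -0.32 (adjusted p = 0.0289). Whether the counting used strand is not given in the sources used here, so reads in the overlap cannot be assigned with certainty.

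Nlrc5 was at 79.0, 85.8 and 87.9 CPM in CON and at 85.6, 92.9 and 96.6 CPM in LPS. The groups overlapped, while LPS was 0.11 to 0.13 higher on the log2 scale in each same-numbered pair. The log2 fold change was 0.12 (SE 0.0664, adjusted p = 0.281, blocked 0.0535).

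**Figure D2:**
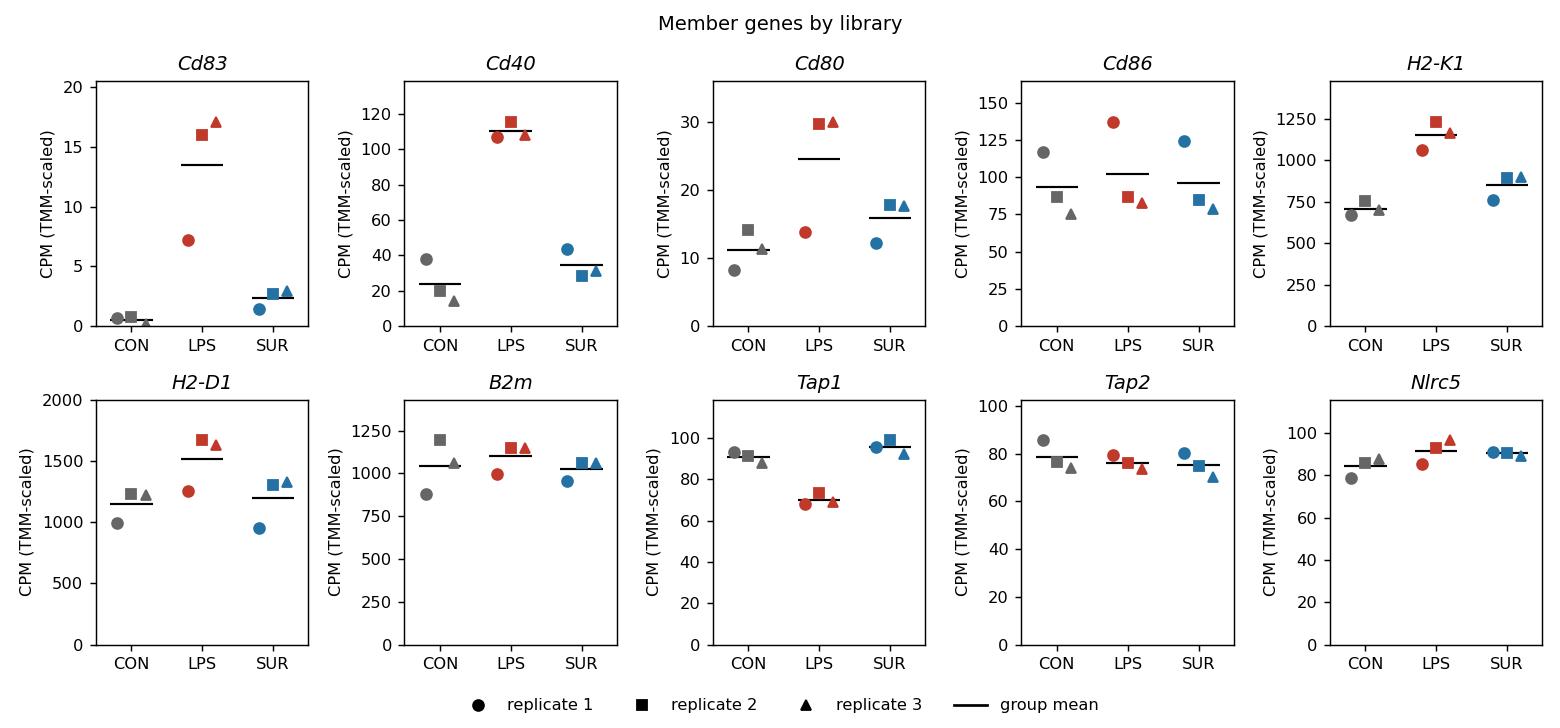
CPM of each of the 10 genes in the 9 libraries, 1 panel per gene with its own axis from 0; symbols give the replicate number and lines the group mean. Cd83, Cd40 and H2-K1 are higher in all LPS libraries than in all CON and SUR libraries, Tap1 is lower, and Cd86 follows the replicate number.

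The second comparison, SUR against LPS, asks what suramin changed in LPS-treated cells, and it shares the LPS libraries with the first. With suramin, Cd83, Cd40 and H2-K1 fell and Tap1 rose, so 4 of the 10 genes were called, beside 17.2% of tested genes. Of these, 3 fell (7.93% of tested genes fell) and 1 rose (9.29% rose). With the replicate block 6 genes were called, Cd80 and H2-D1 being added, beside 45.3% of tested genes, and 6 without the libraries numbered 1, beside 30%. The groups did not overlap for 4 genes, beside 34.9% of tested genes. The median log2 fold change was -1.16 over the co-stimulation genes, -0.06 over the class I genes and -0.0059 over all tested genes.

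Cd83 was at 1.44, 2.66 and 2.92 CPM in SUR 1, 2 and 3. No SUR library reached the lowest LPS library. The log2 fold change against LPS was -2.52 (SE 0.423, adjusted p = 0.00414), a 5.72-fold fall, with log2 differences of -2.53 to -2.23 in the same-numbered pairs. Cd40 was at 43.4, 28.4 and 31.2 CPM in SUR, also without overlap. It fell by 1.69 in log2 units (SE 0.314, adjusted p = 0.00658), or 3.22-fold.

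Cd80 was at 12.3, 17.7 and 17.7 CPM in SUR, overlapping LPS through LPS 1 but lower in each number. Its log2 fold change was -0.62 (SE 0.310, adjusted p = 0.219), with a blocked adjusted p of 0.00152. Without LPS 1 it was called unblocked, at -0.91 (adjusted p = 0.0312). Cd86 was at 124, 84.8 and 78.9 CPM in SUR, close to LPS within each number. Its log2 fold change was -0.09 (SE 0.252, adjusted p = 0.865, blocked 0.152). The TPM ratio of Cd80 to Cd86 in SUR was 0.124, 0.258 and 0.259, below LPS for numbers 2 and 3 and about equal for number 1.

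H2-K1 was at 759, 894 and 899 CPM in SUR, between the CON and LPS libraries without overlapping either. It fell by 0.44 in log2 units against LPS (SE 0.0900, adjusted p = 0.0103), or 1.36-fold. H2-D1 was at 957, 1309 and 1328 CPM in SUR, overlapping LPS. The log2 difference was -0.34 (SE 0.157, adjusted p = 0.183), and with the replicate block -0.35 (SE 0.0366, adjusted p = 2.74e-05). The SUR libraries were lower in all 3 pairs, by 0.30 to 0.39 on the log2 scale. The TPM ratio of H2-K1 to H2-D1 in SUR was 0.783, 0.681 and 0.673, below LPS and above CON within each number. B2m was at 956, 1061 and 1059 CPM in SUR, with a log2 difference of -0.10 (SE 0.112, adjusted p = 0.633).

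Tap1 was at 95.8, 98.9 and 92.5 CPM in SUR, above every LPS library. The rise was 0.45 in log2 units (SE 0.0577, adjusted p = 0.00119), or 1.37-fold, with 0.42 to 0.49 in the pairs. Tap2 was at 80.3, 74.9 and 70.4 CPM in SUR, with a log2 difference of -0.02 (SE 0.0766, adjusted p = 0.908). The TPM ratio of Tap1 to Tap2 was 0.989, 1.09 and 1.09 in SUR, above all LPS libraries. Psmb9 was at 17.0 ± 0.441 CPM in SUR (SD, n = 3), with a log2 difference of 0.21 against LPS (SE 0.0861, adjusted p = 0.142, blocked 0.0355). Nlrc5 was at 91.3, 90.8 and 89.3 CPM in SUR, within the LPS range, with a log2 difference of -0.02 (SE 0.0664, adjusted p = 0.892).

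**Figure D3:**
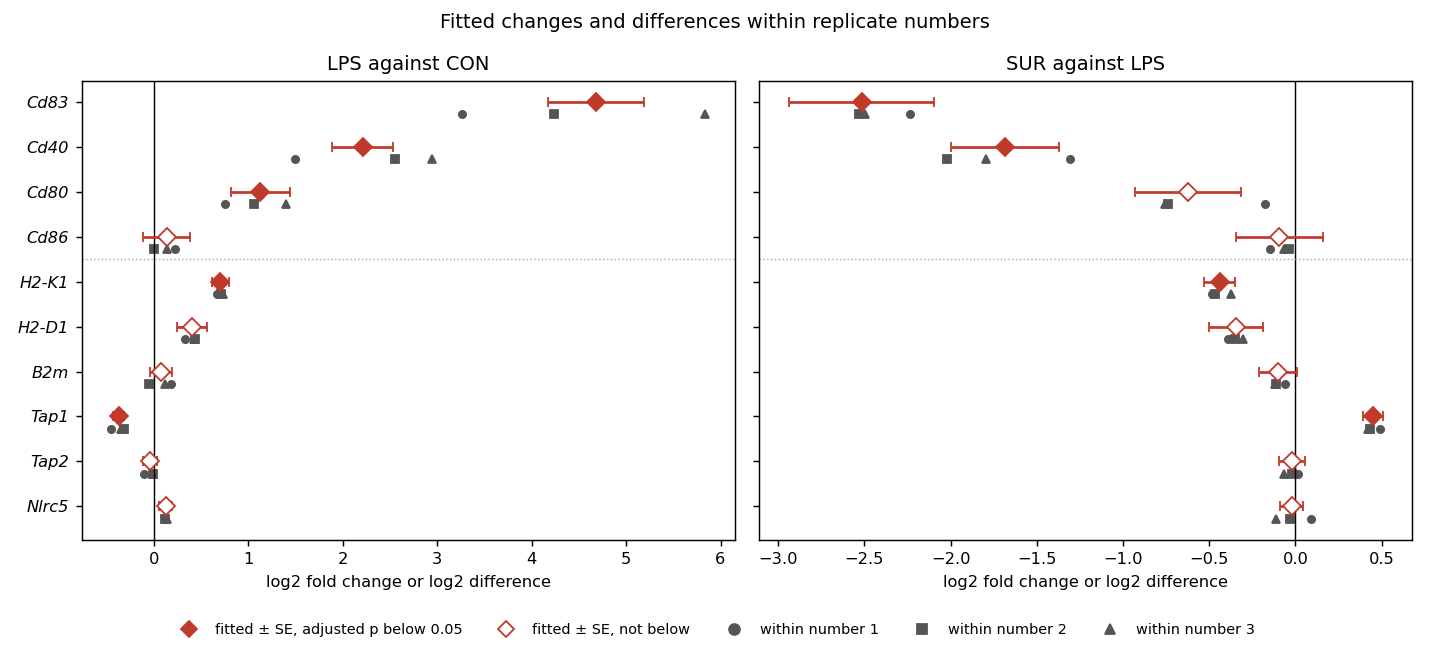
Log2 fold change ± SE of the 10 genes for LPS against CON and SUR against LPS, filled where the adjusted p is below 0.05, with the 3 same-numbered differences beside each. Cd83 has 4.68 and -2.52, Tap1 has the opposite signs (-0.37 and 0.45), and Cd86, B2m, Tap2 and Nlrc5 lie near 0.

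The third comparison, SUR against CON, asks how far the cells given suramin and LPS differed from untreated cells. edgeR's quasi-likelihood test called 0 of the 10 genes, beside 0.425% of tested genes. The unadjusted p was under 0.05 for 2 genes, Cd83 (0.00331) and H2-K1 (0.0172). DESeq2 called 1 gene, Cd83, and limma-voom 0. With the replicate block 3 genes were called, all higher in SUR, beside 11.5% of tested genes. Without the libraries numbered 1 there were 4, beside 5.19%. The groups did not overlap for 3 genes (Cd83, H2-K1 and Nlrc5), beside 15% of tested genes.

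Cd83 was above every CON library in every SUR library, with a log2 difference of 2.16 (SE 0.543, adjusted p = 0.181, blocked 0.00579). H2-K1 did not overlap either, at 0.26 (SE 0.0899, adjusted p = 0.353, blocked 0.00197). Cd80 overlapped, at 0.50 (SE 0.316, adjusted p = 0.754, blocked 0.0266). Cd40 overlapped through CON 1, at 0.52 (SE 0.317, adjusted p = 0.743, blocked 0.133), and without the libraries numbered 1 its adjusted p was 0.00219. Tap1, by contrast, had a log2 difference of 0.08 (SE 0.0573, adjusted p = 0.836, blocked 0.232). The other 5 genes had log2 fold changes from -0.07 to 0.10. In the authors' deposited table, 6, 4 and 1 of the 10 genes had a q-value below 0.05 in LPS against CON, SUR against LPS and SUR against CON. In that table H2-D1 was included in the first (q = 0.0480) and Cd83 was the gene in the last (q = 0.0254).

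Some members differed by library number in the same direction in every group. The log2 level of library 1 minus the mean of libraries 2 and 3 was 0.53, 0.69 and 0.60 for Cd86 in CON, LPS and SUR. For Cd80 the same gap was -0.62, -1.10 and -0.53, the opposite direction. For H2-D1 it was -0.30, -0.40 and -0.46. Cd40 was high in CON 1 (gap 1.19) and, by less, in SUR 1 (gap 0.54), but not in LPS 1 (gap -0.06). What the number stands for is not given in the labels.

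Genes around these members were described in 7 lists. Shares of all tested genes called in either direction stand beside the counts, and a count near its share is no result about the list. Among 15 genes of peptide loading and supply, LPS raised 2, Tapbp and Tpp2, and lowered 0, beside 18.3%. Under upper-quartile scaling Psmb9 was called lower. The list's median log2 fold changes were 0.036 for LPS against CON and -0.071 for SUR against LPS, beside -0.0088 and -0.0059 over all tested genes. Tapbp encodes tapasin, which bridges class I to the peptide transporter, and it was at 93.1 ± 8.51 CPM in CON, 166 ± 12.4 in LPS and 94.1 ± 3.66 in SUR (SD, n = 3 each). Its log2 fold change was 0.83 for LPS against CON (adjusted p = 0.000231) and -0.82 for SUR against LPS (adjusted p = 0.000430). Tapasin and TAP1 transcripts therefore moved in opposite directions in both comparisons. Tpp2, a cytosolic peptidase, rose by 0.33 in log2 units (adjusted p = 0.0328), a call lost without CON 2, CON 3, any LPS library or SUR 3 (adjusted p up to 0.125) and under upper-quartile scaling (0.0844). In SUR against LPS 4 fell, namely Tapbp, Tpp2 (-0.36), the proteasome activator subunit Psme2 (-0.29) and the peptidase Npepps (-0.27), and 0 rose. Of all tested genes, 17.2% were called there. Tpp2 lost this call without LPS 1, LPS 3, SUR 2 or SUR 3 (0.0859 at most), Psme2 without CON 3, LPS 1, LPS 3 or any SUR library (up to 0.121) and Npepps without LPS 3, SUR 1 or SUR 3 (up to 0.0735). The same 3 genes were not called under upper-quartile scaling, where Psmb9 was called higher instead (adjusted p = 0.0433). With the replicate block, 5 rose and 1 fell in the first comparison, beside 41.8% of tested genes called. In the second 1 rose and 6 fell, beside 45.3%.

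Of 12 tested other class I heavy chains, LPS raised 4 and lowered 0, beside 18.3% of tested genes called. SUR against LPS lowered 3 and raised 0, beside 17.2%, or 5 and 1 with the block, beside 45.3%. Their medians were 0.024 and -0.15 on the log2 scale. The Q region gene H2-Q4 was at 50.2 ± 8.86 CPM in CON, 117 ± 4.60 in LPS and 64.5 ± 4.76 in SUR (SD, n = 3 each). It rose by 1.22 in log2 units with LPS (adjusted p = 0.000226) and fell by 0.86 with suramin (adjusted p = 0.00188). H2-Q6 rose by 1.77 (adjusted p = 0.000220) and fell by 1.12 (adjusted p = 0.00266). H2-Q7 rose by 2.88 (adjusted p = 0.00632), and its SUR against LPS value was -1.63 (adjusted p = 0.0563, blocked 0.00163). H2-M2 had 0 to 0.175 CPM in CON, 1.40 to 3.50 in LPS and 0.115 to 0.532 in SUR, called in both comparisons (adjusted p = 0.00179 and 0.00971). H2-M2 passed the filter on low counts through LPS, the group where it was high, so its calls lend no support to the counts of this list. The H2-Q genes are related copies, whose reads the counting could split or share, so their values are uncertain. The H2-Q1, H2-Q2, H2-Q10, H2-T3 and Cd1d1 counts were too low to test.

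**Figure D4:**
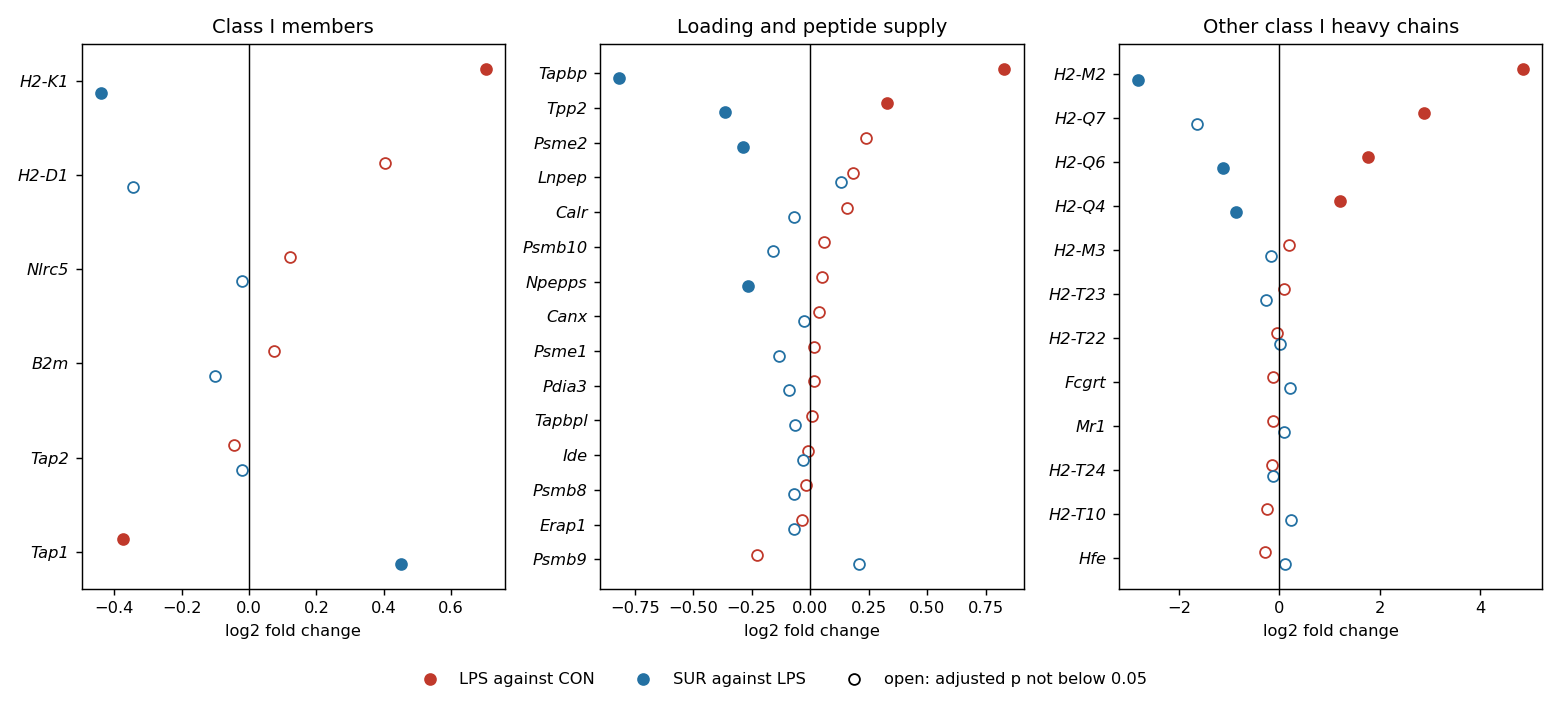
Log2 fold change of the class I members, the loading and supply genes and the other class I heavy chains. Red is LPS against CON and blue is SUR against LPS, filled where called. Tapbp, H2-Q4, H2-Q6 and H2-K1 have rises with LPS and falls with suramin, and Tap1 has the reverse.

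Of 16 tested regulators of these loci, LPS raised 6 and lowered 3, beside 18.3% of tested genes called. SUR against LPS lowered 5 and raised 1, beside 17.2%, or 8 and 4 with the block, beside 45.3%. Their medians were 0.13 and -0.16 on the log2 scale. The NF-kappaB subunit genes Relb, Nfkb2, Rela and Nfkb1 rose by 2.36, 1.90, 1.47 and 1.07 in log2 units (adjusted p = 8.87e-05, 7.46e-05, 6.49e-05 and 4.16e-05). In SUR against LPS their log2 fold changes were -1.51, -1.18, -1.08 and -1.07, all called (adjusted p = 0.00109, 0.00107, 0.000374 and 7.90e-05).

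Irf1, an interferon-responsive activator of class I genes, was at 40.0 ± 18.2 CPM in CON, 158 ± 29.0 in LPS and 176 ± 48.8 in SUR (SD, n = 3 each). It rose by 1.98 with LPS (adjusted p = 0.00315), and its SUR against LPS value was 0.15 (SE 0.315, adjusted p = 0.813). It was the 1 regulator called in SUR against CON, at 2.14 (adjusted p = 0.0393), a call lost without any 1 of 7 libraries (CON 2, CON 3, LPS 1 to 3, SUR 2 or SUR 3, with an adjusted p of at most 0.218). With the block, 5 regulators rose and 2 fell in that comparison, beside 11.5% of tested genes called. Rfxank, a subunit of the RFX complex that binds class I and class II promoters, fell by 0.59 with LPS (adjusted p = 0.00779) and rose by 0.53 in SUR against LPS (adjusted p = 0.0151), the latter lost without LPS 2 or SUR 2 (adjusted p up to 0.0709). Rfx5, another RFX subunit, went the other way and rose by 0.80 with LPS (adjusted p = 0.0218). This call was lost without CON 2, CON 3, LPS 1 or LPS 2 (up to 0.0876). The SUR against LPS value of Rfx5 was -0.52 (adjusted p = 0.108, blocked 0.000902). The other 2 regulators that LPS lowered were Rfxap (-0.35, adjusted p = 0.0377) and Irf8 (-0.41, adjusted p = 0.0406). Rfxap lost this call without CON 1, CON 3, any LPS library, SUR 1 or SUR 2 (up to 0.121), and Irf8 without any CON library, LPS 2, LPS 3 or SUR 2 (up to 0.138). Stat2 was the fifth gene lowered in SUR against LPS, at -0.29 (adjusted p = 0.0267), a call lost without LPS 1, LPS 3 or any SUR library (up to 0.0915) and under upper-quartile scaling (0.0824). Ciita, the class II activator, had at most 11 counts in any library.

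Among 19 tested other co-stimulators, co-inhibitors and adhesion ligands, LPS raised 6 and lowered 1, beside 18.3% of tested genes called. SUR against LPS lowered 5 and raised 0, beside 17.2%. With the replicate block these counts were 8 and 4, then 7 lowered and 7 raised, beside 41.8% and 45.3%. Their medians were -0.022 and -0.029 on the log2 scale. Tnfsf9, the 4-1BB ligand, was at 32.6 ± 25.8 CPM in CON, 508 ± 82.7 in LPS and 112 ± 30.7 in SUR (SD, n = 3 each). It rose by 3.96 in log2 units (adjusted p = 0.00106) and fell by 2.18 (adjusted p = 0.0160), the fall losing its call without LPS 3 or SUR 2 (adjusted p up to 0.0693). The adhesion ligand Icam1 rose by 2.83 and fell by 1.54 (adjusted p = 0.000220 and 0.00508). Icosl, the ligand of the T cell receptor ICOS, rose by 2.39 and fell by 1.23 (adjusted p = 5.61e-05 and 0.00129).

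Pvr and Nectin2, ligands of DNAM-1 and TIGIT, rose by 1.65 and 1.18 and fell by 1.21 and 1.13 on the log2 scale. Cd274, which encodes the inhibitory ligand PD-L1, was at 15.8 ± 4.51 CPM in CON, 44.2 ± 11.9 in LPS and 35.7 ± 2.66 in SUR (SD, n = 3 each). It rose by 1.48 with LPS (adjusted p = 0.00318), and its SUR against LPS value was -0.31 (SE 0.239, adjusted p = 0.457, blocked 0.212). The single gene that LPS lowered was Vsir, an inhibitory B7 family member, at -0.58 (adjusted p = 0.0438, and up to 0.156 without CON 2, CON 3, LPS 1, LPS 2, SUR 2 or SUR 3). With the block the adjusted p of this fall was 6.92e-07. The SUR against LPS value of Vsir was 0.46 (SE 0.169, adjusted p = 0.0981, blocked 4.86e-06). Icosl was the single gene of this list called in SUR against CON, at 1.16 (adjusted p = 0.0311), beside 0.425% of tested genes. Its adjusted p was up to 0.210 without CON 2, CON 3, LPS 2, LPS 3, SUR 2 or SUR 3. With the block 7 genes of the list were called, all higher, beside 11.5% of tested genes.

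Of 12 tested genes of CD40 signalling and its targets, LPS raised 8 and lowered 1, beside 18.3% of tested genes called. SUR against LPS lowered 5 and raised 1, beside 17.2%. The list's medians were 0.81 and -0.33 on the log2 scale. Traf1, an adaptor of TNF receptor family signalling, was at 1.54 ± 1.22 CPM in CON, 42.9 ± 8.15 in LPS and 4.41 ± 1.40 in SUR (SD, n = 3 each). It rose by 4.79 (adjusted p = 0.000241) and fell by 3.28 in log2 units (adjusted p = 0.00136). Il12b, the p40 subunit of interleukin 12, had 0 to 0.175 CPM in CON, 4.63 to 5.15 in LPS and 0.0591 to 0.173 in SUR, called in both (adjusted p = 0.000142 and 0.000324). Il12b passed the filter on low counts through LPS, the group where it was high. Traf1, at 0.357 CPM in its lowest CON library, passed it through LPS and SUR, where it was higher. The calls of Il12b, and those of Traf1 against CON, therefore lend no support to the counts and medians of this list. The feedback inhibitors Tnfaip3 and Nfkbia rose by 3.84 and 2.55 with LPS (adjusted p = 0.0140 and 0.0169), calls lost for Tnfaip3 without CON 2 (up to 0.0637) and for Nfkbia without CON 2 or LPS 3 (up to 0.0754). Neither was called in SUR against LPS, at -1.45 (SE 0.781, adjusted p = 0.258, blocked 0.0601) and -0.36 (SE 0.561, adjusted p = 0.747, blocked 0.553). Tnfaip3 was called there without CON 1 (adjusted p = 0.0453). The NF-kappaB target Birc3 rose by 2.11 and fell by 1.27, and the TRAF-binding gene Tank rose by 1.09 and fell by 1.13. Traf3, an inhibitor of the non-canonical pathway, was the fifth gene lowered in SUR, at -0.24 (adjusted p = 0.0185), a call lost without LPS 2 or LPS 3 (up to 0.0612). Map3k14, the kinase NIK of the non-canonical NF-kappaB pathway, was the gene that moved the other way in SUR. It was at 22.6 ± 1.05 CPM in CON, 18.8 ± 0.115 in LPS and 33.1 ± 0.812 in SUR, a rise of 0.82 in log2 units against LPS (SD, n = 3 each; adjusted p = 0.000216). It was also the 1 gene lowered by LPS, at -0.27 (adjusted p = 0.0257), a call lost without CON 1, CON 2, any LPS library, SUR 1 or SUR 2 (up to 0.0840). In SUR against CON it was the 1 gene called, at 0.55 (adjusted p = 0.0195), beside 0.425% of tested genes. Its adjusted p was up to 0.109 without CON 2, CON 3, LPS 2, LPS 3, SUR 2 or SUR 3. With the block 5 genes of the list rose, beside 11.5% of tested genes called.

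Class II presentation and dendritic cell maturation genes were counted in the same way. Of 10 tested class II genes, 1 rose with LPS and 1 fell in SUR against LPS, in both cases Cd74, the invariant chain. The shares of all tested genes called were 18.3% and 17.2%. Cd74 was at 264 ± 14.6, 387 ± 28.3 and 274 ± 6.49 CPM in CON, LPS and SUR (SD, n = 3 each), with log2 fold changes of 0.55 and -0.50 (adjusted p = 0.000904 and 0.00209). With the block 1 rose and 3 fell, then 3 rose and 2 fell, beside 41.8% and 45.3% of tested genes called. The medians of the class II list were -0.084 and 0.065 on the log2 scale. The class II chains H2-Aa, H2-Ab1 and H2-Eb1 had at most 3, 7 and 5 counts in any library and were not tested. Of 8 tested maturation genes, LPS raised 3, Ccl22, Marcksl1 and Samsn1, and the same 3 fell in SUR against LPS, beside the same 18.3% and 17.2%. Ccl22, a chemokine, had 0 to 0.0584 CPM in CON, 1.25 to 1.33 in LPS and 0 to 0.0585 in SUR, and it passed the filter on low counts through LPS alone, so its calls lend no support to these counts. With the block 5 maturation genes rose, then 5 fell and 1 rose, beside 41.8% and 45.3% of tested genes called. The medians of this list were 0.88 and -0.66 on the log2 scale. Marcksl1 rose by 3.57 and fell by 2.17 (adjusted p = 0.00140 and 0.0146), the fall being lost without SUR 2 or SUR 3 (adjusted p up to 0.0615). Ccr7 and Lamp3, markers of mature dendritic cells, had at most 2 and 1 counts.

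The genes most like 4 of the members over the 9 libraries were taken from 7831 genes by Pearson's r of log2 CPM, as a description in which all points share the 3 treatments and the library numbers. For Cd83 they were Tnfaip2, Nupr1, Cdkn1a, Mcl1 and Nfkbie (r = 0.986 to 0.992). For H2-K1 they were Jund, Dusp5, Apobr, Snx20 and Lacc1 (r = 0.984 to 0.989). For Tap1 they were Midn, Zfp729a, Sco1 and Trim8 (r = 0.978 to 0.990). For Cd86, whose level followed the library number, they were Bmi1, Clec10a, Scly, Matr3 and Cnbp (r = 0.987 to 0.994).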

How the data were processed

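mRNA was sequenced from 9 libraries of MH-S cells, 3 per group. The submitters' processing notes name HISAT2 2.0.4 and the build GRCm38 (mm10). How reads were counted, and on which annotation, is not given in the sources used here. Expected counts, as deposited, are per gene and not normalized, per the file headers. Of these values, 93.4% were whole, and all were rounded before testing. The authors' deposited FPKM values served as an alternative, and their deposited TPM values, scaled for length and depth, gave levels between genes. The authors' deposited log2 fold changes and q-values were only read beside the results.

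Genes were filtered by filterByExpr (11281 tested, 3490 not), scaled by TMM and tested with the quasi-likelihood F test of edgeR 4.0.16 under R 4.3.3. A single model held the 9 libraries with 1 mean for each group, and p-values were Benjamini-Hochberg adjusted (threshold 0.05). SE is the log2 fold change divided by the root of F. The test was also run on simulated counts of independent libraries with a single fixed dispersion. That setting lacks the differences by library number seen here, so it does not vouch for the calls in these data. Alternatives were RLE and upper-quartile scaling, DESeq2 1.42.0, limma-voom (limma 3.58.1), no filter, only the 2 groups compared, log2(FPKM + 0.1) and log2(FPKM + 1), leaving out each library or all libraries numbered 1, and the replicate number as a block. Every same-numbered pair of libraries in different groups deviated together (correlation of deviations from the group means 0.435 to 0.801, other pairs -0.643 to 0.437). These ranges overlap slightly, and the lowest values of the other pairs involve a library numbered 1. The number paired the libraries only in the alternative with the block, and the main fit ignored it. Replicates of a group differed beyond sampling noise (chi-square per degree of freedom 3.75 to 36). Plots used matplotlib 3.10.9 (Python 3.11.15).

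The members, lists, motifs and tests were chosen with earlier results of these data known. Named genes are the 10 members, up to 5 called genes with the largest change in each list and comparison, and any needed to account for a count of 5 or fewer. Psmb9, Rfx5 and genes with low counts were added after their values were seen. 1 gene that the rule on likeness would name is not reported here. Positions are from GENCODE M21 and promoters from RefSeq.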

Additional observations from a re-analysis of the deposited data

How the results depend on the processing

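Over all alternatives, the call and direction of Cd83, Cd40, H2-K1 and Tap1 were the same in LPS against CON and in SUR against LPS. Genes called in LPS against CON numbered 2069 and became 4714 with the replicate block, 3415 without the libraries numbered 1, and 1379 to 2075 when each library was left out in turn. In SUR against LPS 1943 became 5109, 3391 and 1208 to 2054, and in SUR against CON 48 became 1302, 587 and 0 to 168, and also 257 with DESeq2 and 4 with only the 2 groups compared. Members called in SUR against CON were 0, against 1 with DESeq2, 3 with the replicate block and 4 without the libraries numbered 1. The block, by pairing the libraries, changed no other call of a member than those given with the results. Leaving out single libraries gave 4 to 6, 4 to 5 and 0 members called in the 3 comparisons. Cd80 in LPS against CON was also not called on log2(FPKM + 0.1), with limma-voom or with only the 2 groups compared (adjusted p = 0.0669, 0.0646 and 0.0675). The scaling moved the split of all calls: 1013 rose and 1056 fell in LPS against CON, against 765 and 1709 with upper-quartile scaling and 679 and 2056 on log2(FPKM + 0.1), and 1048 and 895 in SUR against LPS, against 1595 and 616, and 1970 and 505. The FPKM setting moved the median of all genes by -0.13 and 0.14 on the log2 scale, so directions of members near 0 are relative to TMM. Members that reversed were not called under any setting that reversed them. In LPS against CON, FPKM (pseudocounts 0.1 and 1) gave -0.018 and -0.018 for Cd86, -0.059 and -0.059 for B2m, and -0.036 and -0.033 for Nlrc5; upper-quartile scaling gave -0.023 for B2m, and Tap2 was 0.003 without the libraries numbered 1. In SUR against LPS, FPKM gave 0.057 and 0.056 for Cd86, 0.063 and 0.063 for B2m, 0.118 and 0.115 for Tap2, and 0.118 and 0.110 for Nlrc5, and upper-quartile scaling 0.069 for Tap2 and 0.069 for Nlrc5. In SUR against CON, FPKM gave 0.003 and 0.003 for B2m. Leaving out single libraries gave ranges across 0: Cd86 -0.137 to 0.344, B2m -0.024 to 0.181 and Tap2 -0.086 to 0.03 in LPS against CON; Cd86 -0.333 to 0.178, Tap2 -0.081 to 0.025 and Nlrc5 -0.067 to 0.018 in SUR against LPS; Cd86 -0.183 to 0.237, H2-D1 -0.038 to 0.199 and B2m -0.138 to 0.081 in SUR against CON. The cause of these changes was not tested. Depth limits Cd83 most, since its CON libraries held 3 to 12 counts.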
